A study of Mus musculus with 11 samples.

Results

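The 35 genes described here encode the enzymes of glycolysis and of glycogen storage and breakdown. They were taken by gene symbol from a table of read counts in whole mouse hearts, where they matched 36 of 54532 gene rows because Aldoa has 2 rows. The mice were C57BL/6, each with a labelled time of 26 weeks, and formed 3 groups. The METTL3 group (4 libraries) carried the labels HFD+STZ and AAV METTL3 together, the HFD+STZ group (4 libraries) carried HFD+STZ alone, and the chow group (3 libraries) carried chow alone. HFD and STZ commonly abbreviate a high-fat diet and streptozotocin, which is toxic to the insulin-producing beta cells, and AAV an adeno-associated viral vector, though the labels leave all of them as letters. METTL3 is the enzyme that adds N6-methyladenosine to messenger RNA. The labels give neither the promoter that drives METTL3 nor the sex or exact age of the mice, and they do not say whether the other mice received an empty vector. Every METTL3 mouse also carried HFD+STZ, so METTL3 was set against HFD+STZ for the vector and against chow for the whole treatment.

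Glycolysis breaks glucose down to pyruvate in the cytosol, with control points at hexokinase, phosphofructokinase and pyruvate kinase. Glycogen is the branched glucose store that glycogen synthase builds and glycogen phosphorylase takes apart, the phosphorylase being switched on by phosphorylase kinase. The adult heart draws most of its energy from fatty acids, can oxidise lactate as well as release it, and in diabetes is known to burn less glucose. Many steps exist as isozymes, of which heart and skeletal muscle use characteristic forms such as Pfkm, Pgam2, Eno3 and Pygm.

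Total counts per library ran from 13900531 to 16952639, of which genes of the mitochondrial genome took 37.7% to 45.5% in METTL3, 28.6% to 32.5% in HFD+STZ and 9.28% to 27.4% in chow hearts. The part of this difference in the results below was not tested beyond fits without those genes. The 12 cardiomyocyte markers summed to 50398 to 56556 CPM (counts scaled to a common library total by TMM) in METTL3 hearts, 47307 to 68812 in HFD+STZ hearts and 56358 to 59251 in chow hearts. The row of Mettl3 itself averaged 8.39 ± 2.19 CPM in METTL3 hearts (SD, n = 4), 6.35 ± 1.58 in HFD+STZ hearts (SD, n = 4) and 6.11 ± 2.67 in chow hearts (SD, n = 3). The METTL3 versus HFD+STZ log2 fold change of that row was 0.40 (SE 0.32, edgeR adjusted p = 0.759), so the treatment rests on the labels. Chow replicate 3 stood apart, with 9.28% mitochondrial counts and 15734 genes with a count. Its cardiomyocyte markers summed to 59251 CPM, but single markers shifted both ways. Myh6 was at 6021 CPM (16164.5 and 15282 in chow replicates 1 and 2) and Atp2a2 at 4510 CPM (10087 and 8463). Tnni3 was at 9102 CPM (2253 and 2947) and Myl2 at 7903 CPM (3585 and 4348). The sample descriptions number the libraries, and the numbers fall in 2 ranges whose meaning the labels do not give. The range 25 to 33 holds 3 METTL3 and 3 HFD+STZ libraries, and the range 78 to 98 holds METTL3 replicate 4, HFD+STZ replicate 1 and all 3 chow libraries. In whole tissue, fewer cells of a type and less RNA per cell cannot be told apart.

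As a share of counts from nuclear genes, the members held 1.33% to 1.54% in METTL3 hearts, 1.52% to 1.75% in HFD+STZ hearts and 1.53% to 1.61% in chow hearts. To compare genes, each CPM was divided by the gene's deposited length in kilobases. On that scale the most abundant member was Ldhb, the heart form of lactate dehydrogenase, at 747 ± 96.6 CPM per kb (SD over 11 libraries). Aldoa, the muscle aldolase that splits fructose bisphosphate, followed at 690 ± 130, and the ranges of Ldhb (615 to 896) and Aldoa (495 to 895) overlapped. Pgam2, the muscle phosphoglycerate mutase, averaged 547 ± 478 CPM per kb, a spread set by chow replicate 3 at 1971. Next came Eno3, the muscle enolase (314 ± 109), Pygm, the muscle glycogen phosphorylase (238 ± 61.1), Tpi1, which interconverts the triose phosphates (210 ± 31.7), Ldha, the muscle form of lactate dehydrogenase (189 ± 36.2), and Pfkm, the muscle phosphofructokinase (166 ± 41.7). These neighbours in the order lay within each other's spread.

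In all, 12 member rows averaged 100 CPM per kb or more, 12 lay between 10 and 100, 9 between 1 and 10, and 3 under 1. The low end held regulators and forms of other tissues. Pfkfb4 averaged 0.546 ± 0.374 CPM per kb, the minor Aldoa row (ENSMUSG00000114515) 0.195 ± 0.166, and Aldoc, the brain aldolase, 0.0322 ± 0.0504. Counts of the minor Aldoa row ran from 0 to 5 per library and those of Aldoc from 0 to 6, and neither passed the filter on low counts. The other 34 rows were tested.

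**Figure D1:**
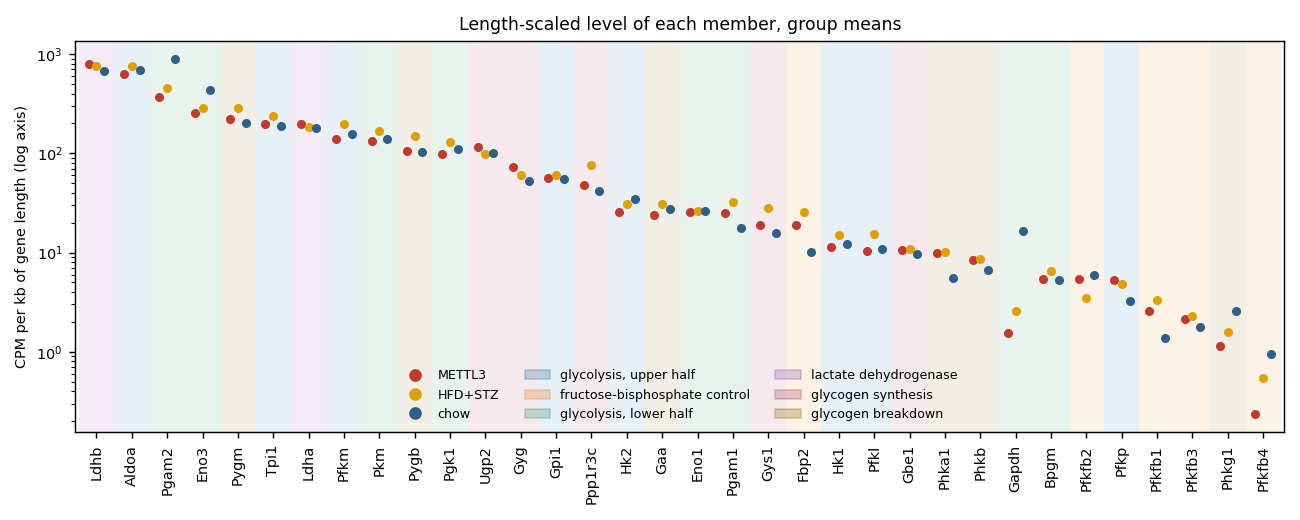
Group means of CPM per kb of gene length (log axis) for the 34 tested member rows, in order of their mean over all libraries, with METTL3 in red, HFD+STZ in yellow and chow in blue on a background coloured by role. Ldhb and Aldoa lead at 747 and 690 CPM per kb and Pfkfb4 is last at 0.546, and the widest gap between group means is that of Gapdh, at 1.55 in METTL3, 2.57 in HFD+STZ and 16.6 in chow hearts.

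Gapdh, the dehydrogenase whose transcript is often used as a loading reference, was low for its step of the pathway. Its row (ENSMUSG00000057666) averaged 6.02 ± 9.64 CPM per kb, far under Tpi1 before it in the pathway (210) and Pgk1 after it (113). The mouse genome carries many processed copies of Gapdh, and the sources used here do not say how reads that match several places were counted. The opposite strand also holds Iffo1, whose counts over all libraries equal 44.3% of those of Gapdh. All Gapdh values are uncertain for these reasons.

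Set against chow, HFD+STZ hearts showed no member past the threshold, an adjusted p under 0.05 by the quasi-likelihood test of edgeR, adjusted by Benjamini-Hochberg for 14862 genes, of which 0.168% passed. At an unadjusted p under 0.05 were 5 members on the higher side (Fbp2, Phka1, Pfkfb1, Gys1 and Pfkp), beside 5.58% of all genes, and 4 on the lower side (Gapdh, Pfkfb2, Phkg1 and Eno3), beside 6.53%. The members' median log2 fold change was 0.26, with 8 of 34 below 0, against a median of -0.018 and 51.6% below 0 over all genes. Groups did not overlap for 4 members on the higher side (Fbp2, Pfkfb1, Phka1 and Pgam1), beside 5.52% of all genes, and for 1 on the lower side (Phkg1), beside 4.88%. Single libraries changed this count. Without chow replicate 3, Fbp2 and Gapdh passed, beside 0.512% of all genes. Without HFD+STZ replicate 1, Fbp2, Gys1, Pfkp and Phka1 passed, beside 1.47% of all genes. DESeq2 called Fbp2 and Phka1 higher and Gapdh lower, beside 1.05% of all genes. With limma voom 10 members passed, beside 13.1% of all genes, with Bpgm, Fbp2, Gys1, Pfkfb1, Pfkp, Phka1, Ppp1r3c and Tpi1 higher and Gapdh and Pfkfb4 lower. With the number range as a covariate the median was 0.064 and 0 members passed, beside 0.00673% of all genes.

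Set against HFD+STZ, METTL3 hearts again showed 0 members past the threshold, and 0% of all genes passed in edgeR (1346 genes had an unadjusted p under 0.05, and DESeq2 called 70). At an unadjusted p under 0.05 were 7 members on the lower side (Pfkfb4, Pfkl, Gys1, Pgk1, Pkm, Pfkm and Gaa), beside 3.63% of all genes, and Pfkfb2 on the higher side, beside 5.43%. DESeq2 called 0 members, and limma voom called Gys1 and Pfkm, both lower, beside 2.66% of all genes. Without both chow replicate 3 and HFD+STZ replicate 1, Gaa, Gys1, Pfkl and Pfkm passed, all lower, beside 2.68% of all genes. The members' median log2 fold change was -0.28, with 28 of 34 below 0, against a median of -0.0036 and 50.4% below 0 over all genes. Of 6 neutrophil markers 3, and of 8 macrophage markers 2, were lower at an unadjusted p under 0.05, and 0 of either list passed in edgeR. The neutrophil markers summed to 2.27 to 11 CPM in METTL3 hearts, and to 42.7 and 40.6 CPM in HFD+STZ replicates 2 and 3 against 7.71 and 4.50 CPM in HFD+STZ replicates 1 and 4. The macrophage markers summed to 155 to 292 CPM in METTL3 and 233 to 562 CPM in HFD+STZ hearts, and the part of both lists in the members' values was not tested. Groups did not overlap for 2 members on the lower side (Pfkfb4 and Pkm), beside 4.14% of all genes, and for 0 on the higher side, beside 5.43%. Within numbers 25 to 33 alone the median was -0.43 and 29 members lay below 0. Of the members 15 had an unadjusted p under 0.05 in edgeR, beside 17.6% of all genes in that fit. There 0 members passed, beside 0% of all genes. Over the tested genes, which are no independent replicates, fold changes of this comparison ran with transcript GC content at a Spearman rho of -0.48, and the members' median GC content was 52.7% against 50.5% for all tested genes. After GC content and gene length were offset, the median was -0.17 and 2 members had an unadjusted p under 0.05, beside 4.88% of all genes.

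Set against chow, METTL3 hearts showed 4 members past the threshold (edgeR, Benjamini-Hochberg), beside 3.2% of all genes. Phka1 rose (1.82% of all genes rose), and Gapdh, Pfkfb4 and Phkg1 fell (1.37% fell). A further 6 had an unadjusted p under 0.05, namely Pfkp, Fbp2, Pfkfb1 and Gyg on the higher side and Eno3 and Pgam2 on the lower side. That made 5 members on each side, beside 10.6% of all genes on the higher and 11.1% on the lower side. The members' median log2 fold change was 0.040, with 15 of 34 below 0, against -0.011 and 50.8% over all genes. Groups did not overlap for Phka1 and Pfkp on the higher side, beside 10.5% of all genes, and for Pfkfb4, Phkg1 and Eno3 on the lower side, beside 8.26%. Leaving out a single library moved the number of members called between 0 and 5. It was 0 without METTL3 replicate 1 (beside 0.493% of all genes), METTL3 replicate 3 (0.432%), METTL3 replicate 4 (0.257%) or chow replicate 2 (0.222%). It was 1 without METTL3 replicate 2 (beside 1.08% of all genes) or HFD+STZ replicate 2, 3 or 4 (1.4%, 1.83% and 1.26%). It was 2 without chow replicate 1 (4.53%) and 4 without HFD+STZ replicate 1 (3.46%). Without chow replicate 3 it was 5 (beside 4.92% of all genes), where Fbp2 (higher) and Hk2 (lower) joined Phka1, Gapdh and Pfkfb4. Pfkp passed without HFD+STZ replicate 1 and Pgam2 without chow replicate 1. DESeq2 called Fbp2 and Pfkp beside the 4 (4.93% of all genes passed). With limma voom those and Eno3, Hk2 and Pfkfb1 passed, beside 20.7% of all genes. Phka1 and Phkg1 did not pass with DESeq2-type size factors (2.81% of all genes passed) or without mitochondrially encoded genes (2.69%), where Gapdh and Pfkfb4 did. With the number range as a covariate 0 members passed, beside 0.00673% of all genes. Over the tested genes, fold changes of this comparison ran with transcript GC content at a Spearman rho of -0.35 and with gene length at 0.21. After offsets for both, Gapdh alone of the members passed, beside 1.23% of all genes. The 8 macrophage markers, 3 of which passed and fell, summed to 155 to 292 CPM in METTL3 and 395 to 774 CPM in chow hearts, and their part in these values was not tested. The comparisons share the chow or the HFD+STZ libraries, so their values for a gene are not independent and are given side by side.

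**Figure D2:**
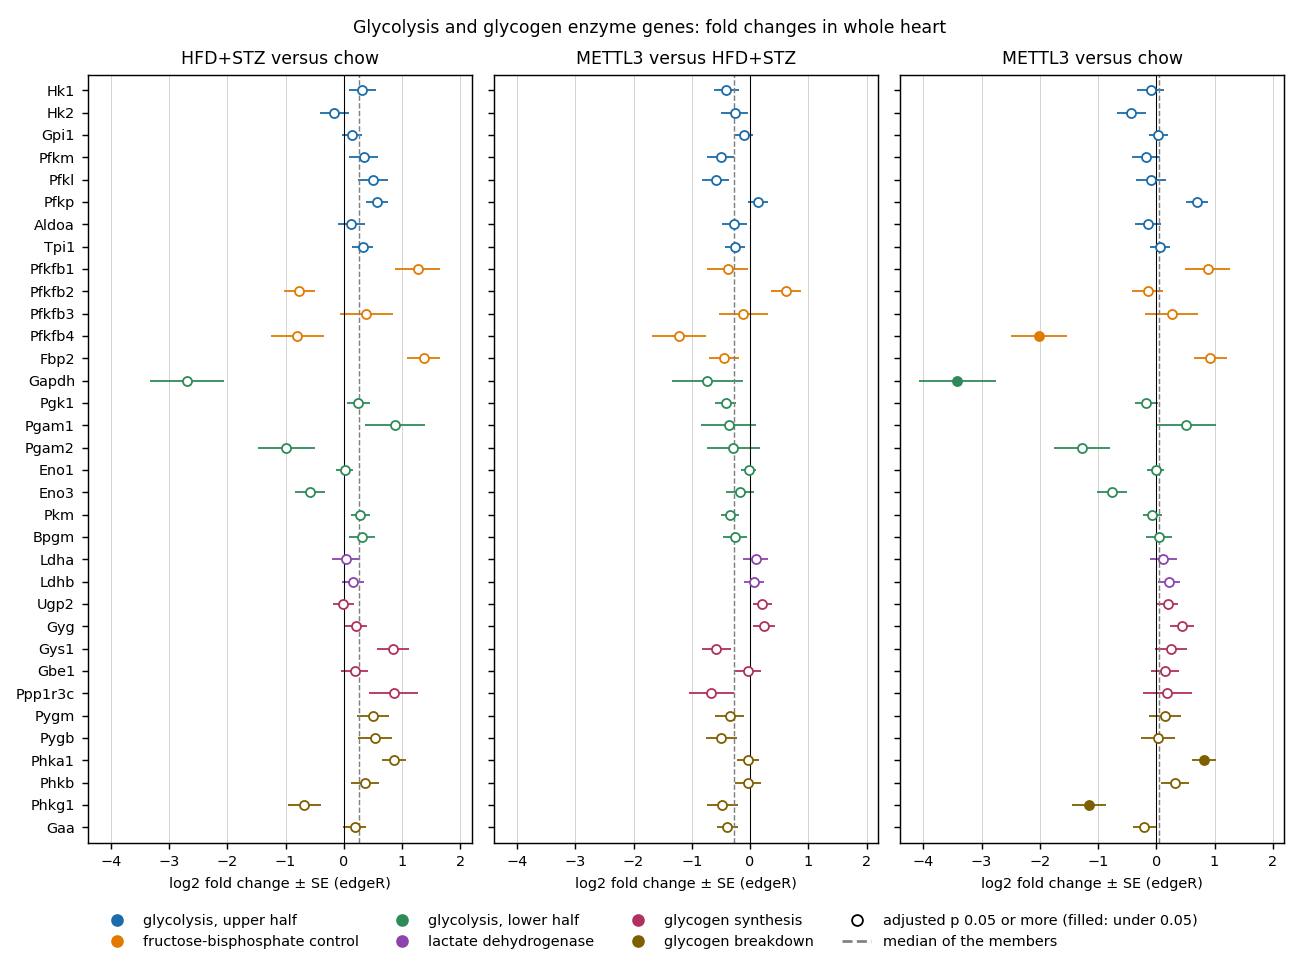
Log2 fold change with its SE from edgeR for the 34 tested members in the 3 comparisons, coloured by role, with filled points at an adjusted p under 0.05 and a dashed line at the members' median. The median lies at 0.26 for HFD+STZ versus chow, -0.28 for METTL3 versus HFD+STZ and 0.040 for METTL3 versus chow, and the filled points are Pfkfb4, Gapdh, Phka1 and Phkg1 in METTL3 versus chow.

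The entry of glucose and the commitment to glycolysis involve the hexokinases Hk1 and Hk2, the isomerase Gpi1 and the phosphofructokinases Pfkm, Pfkl and Pfkp. Of the 8 tested members from hexokinase to triose phosphate isomerase, 0 passed in any comparison in the edgeR fit of all 11 libraries. Against HFD+STZ, METTL3 hearts lay lower in 7 of these 8, and against chow HFD+STZ hearts lay higher in 7 of 8. Pfkm had 485, 425, 512 and 442 CPM in the 4 METTL3 libraries, 470, 748, 671 and 761 CPM in the 4 HFD+STZ libraries and 633, 605 and 335 CPM in the 3 chow libraries. HFD+STZ replicates 2, 3 and 4 lay above every other library, while HFD+STZ replicate 1 fell inside the METTL3 range. In METTL3 versus HFD+STZ Pfkm had a log2 fold change of -0.51 (SE 0.22, edgeR adjusted p = 0.534).

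Pfkl, the liver form, had 72.5, 56.8, 81.7 and 63.6 CPM in METTL3 hearts, 61, 119, 88.3 and 146 CPM in HFD+STZ hearts and 75, 77.5 and 66.4 CPM in chow hearts. The METTL3 and chow libraries shared a range here and 3 HFD+STZ libraries exceeded it. For METTL3 versus HFD+STZ this made a log2 fold change of -0.59 (SE 0.24, edgeR adjusted p = 0.504).

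Pfkp, the platelet form, followed another pattern. It had 70.7, 60.9, 73.2 and 77.1 CPM in METTL3 hearts, 43.6, 71.6, 68.8 and 72.1 CPM in HFD+STZ hearts and 40.9, 47.6 and 41.4 CPM in chow hearts. Every METTL3 library exceeded every chow library, and HFD+STZ replicate 1 alone of its group lay in the chow range. Its log2 fold change was 0.70 (SE 0.19, edgeR adjusted p = 0.0666) in METTL3 versus chow and 0.56 (SE 0.19, adjusted p = 0.304) in HFD+STZ versus chow. Without HFD+STZ replicate 1 it passed in both, at 0.70 (edgeR adjusted p = 0.0321) in METTL3 versus chow and 0.71 (adjusted p = 0.0482) in HFD+STZ versus chow, and DESeq2 called it in METTL3 versus chow (adjusted p = 0.0214). The gene lies opposite Pitrm1, whose counts equal 68.4% of its own. Pitrm1 itself had log2 fold changes of -0.023 in METTL3 versus chow and 0.27 in HFD+STZ versus chow (edgeR adjusted p = 0.979 and 0.734).

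Among the other members of these steps, Hk1, which sits on the mitochondrial surface, averaged 96.5 ± 13.1 CPM in METTL3, 128 ± 15.7 in HFD+STZ and 103 ± 35.1 in chow hearts. Hk2, the insulin-responsive hexokinase of muscle, averaged 153 ± 10.9, 184 ± 36.3 and 206 ± 75.2 CPM in the same order, the chow libraries having 258, 240.4 and 120 CPM, of which replicate 3 is the lowest. Without chow replicate 3 the log2 fold change of Hk2 in METTL3 versus chow was -0.71 (SE 0.18, edgeR adjusted p = 0.0364), against -0.43 with it (adjusted p = 0.336), and limma voom also called it lower. In HFD+STZ versus chow it was -0.44 without that library (adjusted p = 0.426), against -0.17 with it. Gpi1 stayed within 316 to 416 CPM in all 11 libraries. Aldoa averaged 1822 ± 372 CPM in METTL3, 2194 ± 241 in HFD+STZ and 2011 ± 533 in chow hearts, and Tpi1 547 ± 49.3, 654 ± 96.3 and 523 ± 47.2. With all 11 libraries, none of these 5 had an unadjusted p under 0.05 in any edgeR comparison.

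Phosphofructokinase is set by fructose-bisphosphate signals. The bifunctional enzymes Pfkfb1 to Pfkfb4 make and remove the bisphosphate that activates it, Pfkfb2 being the heart form, while Fbp2, the muscle fructose-bisphosphatase, runs the step backwards. Of these 5 genes 0 passed in HFD+STZ versus chow or METTL3 versus HFD+STZ, and Pfkfb4 passed in METTL3 versus chow. Promoters of Fbp2 and Pfkfb2 are shown because these muscle and heart forms leaned opposite ways in HFD+STZ versus chow while each gene has a promoter with the same E-box. They run from 250 bases before to 50 bases past the RefSeq start site (GRCm38.p6), both on the minus strand, 5′ to 3′, with CACGTG in capitals. That of Fbp2 is chr13:62858351-62858650 and that of Pfkfb2 is chr1:130715772-130716071. Of the 3 listed Pfkfb2 promoters it is the only holder of CACGTG and was picked for that.
Fbp2: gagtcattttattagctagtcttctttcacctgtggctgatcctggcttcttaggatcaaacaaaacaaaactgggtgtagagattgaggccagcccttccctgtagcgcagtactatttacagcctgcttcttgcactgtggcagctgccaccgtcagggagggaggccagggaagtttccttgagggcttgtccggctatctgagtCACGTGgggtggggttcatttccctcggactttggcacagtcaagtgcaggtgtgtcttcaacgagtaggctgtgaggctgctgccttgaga
Pfkfb2: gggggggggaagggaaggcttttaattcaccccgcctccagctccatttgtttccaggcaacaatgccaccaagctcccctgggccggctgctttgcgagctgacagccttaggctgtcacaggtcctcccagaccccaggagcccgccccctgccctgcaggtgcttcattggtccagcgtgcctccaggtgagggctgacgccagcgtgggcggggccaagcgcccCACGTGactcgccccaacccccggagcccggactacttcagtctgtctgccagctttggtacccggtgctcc
The E-box lies 42 bases before the start site in Fbp2 and 22 bases before it in Pfkfb2. CACGTG, which reads the same on both strands, was found in at least 1 promoter of 8 of the 35 members (22.9%), namely Fbp2, Gaa, Gyg, Ldha, Pfkfb2, Pfkfb3, Pfkm and Ppp1r3c, against 8.09% of 27025 genes. The 35 members have 53 listed promoters and the 27025 genes 32851, and a gene with more promoters has more windows to match. Counted by promoter, CACGTG was in 8 of the 53 and in 7.15% of all. The shorter ACGTG, searched on both strands and contained in every CACGTG, was found in 19 of 35 members (54.3%) and in 21.8% of genes. Counted by promoter, ACGTG was in 23 of the 53 and in 19.6% of all. Such matches describe the letters in these windows and do not show that a factor binds.

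Fbp2 had 36.2, 18, 33.9 and 23.7 CPM in METTL3 hearts, 26.7, 43.7, 48.1 and 33.9 CPM in HFD+STZ hearts and 11.5, 13.9 and 18.9 CPM in chow hearts. Every HFD+STZ library exceeded every chow library, including HFD+STZ replicate 1, which shares the number range of the chow libraries. METTL3 replicate 2 overlapped the chow range and the other 3 METTL3 libraries lay above it. Fbp2 had a log2 fold change of 1.37 (SE 0.29, edgeR adjusted p = 0.0838) in HFD+STZ versus chow, and without chow replicate 3 it was 1.59 (adjusted p = 0.0321). It also passed without HFD+STZ replicate 1 and with DESeq2, and its value with the number range as a covariate was 0.99 (edgeR adjusted p = 0.860). In METTL3 versus chow it was 0.92 (SE 0.28, edgeR adjusted p = 0.0895), and in METTL3 versus HFD+STZ -0.44 (SE 0.26, adjusted p = 0.640).

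Pfkfb1, the liver and skeletal muscle form, had 8.85, 14.3, 5.74 and 12.4 CPM in METTL3 hearts, 8.54, 17.3, 18.2 and 9.92 CPM in HFD+STZ hearts and 7.67, 3.44 and 5.63 CPM in chow hearts. All HFD+STZ libraries lay above the chow libraries. In HFD+STZ versus chow its log2 fold change was 1.27 (SE 0.39, edgeR adjusted p = 0.244), and in METTL3 versus chow it was 0.88 (SE 0.38, adjusted p = 0.205). Apex2 lies opposite this gene with 58.8% of its counts.

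Pfkfb2 had 27.6, 52, 34.1 and 42.8 CPM in METTL3 hearts, 31.1, 18.8, 21.7 and 30.5 CPM in HFD+STZ hearts and 42.9, 30.5 and 57 CPM in chow hearts. HFD+STZ hearts held the lowest libraries, and the groups overlapped in each comparison. Its log2 fold change was -0.77 (SE 0.27, edgeR adjusted p = 0.317) in HFD+STZ versus chow and 0.61 (SE 0.25, adjusted p = 0.513) in METTL3 versus HFD+STZ. Yod1, on the opposite strand inside Pfkfb2 with 24.3% of its counts, had log2 fold changes of -0.17 and 0.85 in these comparisons (edgeR adjusted p = 0.773 and 0.350). Without a stated strand setting, reads of the pair cannot be told apart.

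Pfkfb4, a form known for its induction by low oxygen, was the scarcest member tested. It had 1.41, 1.5, 1.28 and 0.358 CPM in METTL3 hearts, 3.24, 2.37, 3.42 and 1.70 CPM in HFD+STZ hearts and 4.25, 6.99 and 2.76 CPM in chow hearts. Every METTL3 library lay below every library of both other groups. In METTL3 versus chow Pfkfb4 had a log2 fold change of -2.02 (SE 0.48, edgeR adjusted p = 0.0449), and in METTL3 versus HFD+STZ it was -1.22 (SE 0.46, adjusted p = 0.466). Counts of Pfkfb4 in METTL3 libraries ran from 4 to 18. After offsets for GC content and gene length the adjusted p in METTL3 versus chow was 0.0660. Pfkfb3, the remaining form, averaged 16 ± 3.68 CPM in METTL3, 17.4 ± 6.52 in HFD+STZ and 13.3 ± 8.32 in chow hearts, with chow replicate 3 at 3.72.

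**Figure D3:**
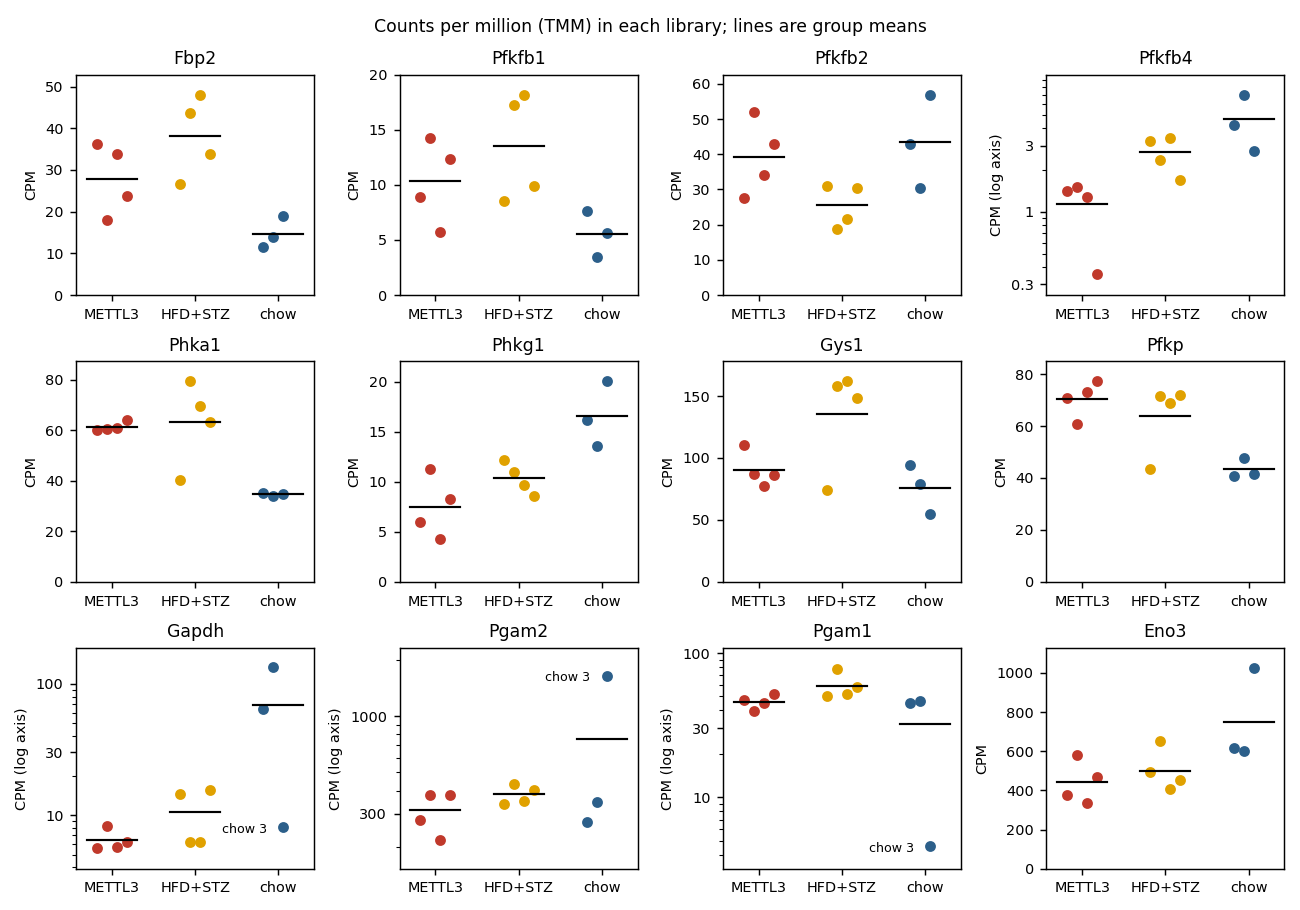
TMM-scaled CPM of 12 members in each library (points) with the group mean (line), METTL3 left of HFD+STZ and chow, on a log axis for Pfkfb4, Gapdh, Pgam2 and Pgam1 and on a linear axis from 0 for the others. Phka1 sits at 60.2 to 64.1 CPM in METTL3 and 34.2 to 35.3 CPM in chow hearts, and chow replicate 3 stands alone at 1656 CPM for Pgam2 and 4.56 CPM for Pgam1.

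The payoff phase of glycolysis runs from Gapdh to pyruvate kinase. Of its 8 tested members 0 passed against chow in HFD+STZ hearts and 0 passed in METTL3 versus HFD+STZ, where all 8 log2 fold changes lay below 0. In METTL3 versus chow Gapdh fell. Gapdh had 5.56, 8.19, 5.66 and 6.18 CPM in METTL3 hearts, 14.4, 6.20, 6.27 and 15.6 CPM in HFD+STZ hearts and 63.9, 134 and 8.05 CPM in chow hearts. Chow replicates 1 and 2 were far above all other libraries, and chow replicate 3 lay below METTL3 replicate 2. The log2 fold change in METTL3 versus chow was -3.42 (SE 0.66, edgeR adjusted p = 0.0255), and in HFD+STZ versus chow it was -2.69 (SE 0.64, adjusted p = 0.133). Iffo1, opposite Gapdh, had a log2 fold change of 0.31 in METTL3 versus chow (edgeR adjusted p = 0.462).

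Pgk1, which makes the first ATP of the pathway, had 257, 221, 226 and 174 CPM in METTL3 hearts, 218, 341, 319 and 298 CPM in HFD+STZ hearts and 267, 248 and 228 CPM in chow hearts. As with Pfkm, HFD+STZ replicates 2, 3 and 4 stood above all other libraries. For Pgk1 the METTL3 versus HFD+STZ log2 fold change was -0.42 (SE 0.18, edgeR adjusted p = 0.534).

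Pkm, the pyruvate kinase of muscle, had 669, 682, 625 and 683 CPM in METTL3 hearts, 722, 936, 851 and 869 CPM in HFD+STZ hearts and 733, 716 and 640 CPM in chow hearts. All METTL3 libraries lay below all HFD+STZ libraries. Pkm had a log2 fold change of -0.35 (SE 0.15, edgeR adjusted p = 0.534) in METTL3 versus HFD+STZ and -0.066 (SE 0.16, adjusted p = 0.854) in METTL3 versus chow.

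The mutases showed how far a single library can set a value. Pgam2 had 278, 377, 217 and 380 CPM in METTL3 hearts, 338, 436, 353 and 403 CPM in HFD+STZ hearts and 271, 348 and 1656 CPM in chow hearts. Pgam1, the form of brain and most other tissues, had 47.6, 39.9, 44.9 and 51.8 CPM in METTL3 hearts, 50.1, 77.1, 51.8 and 58.4 CPM in HFD+STZ hearts and 45.3, 46.6 and 4.56 CPM in chow hearts. Chow replicate 3 was the highest library for Pgam2 and the lowest for Pgam1. Pgam2 had a log2 fold change of -1.28 (SE 0.49, edgeR adjusted p = 0.150) in METTL3 versus chow, which turned to 0.0078 without chow replicate 3. In HFD+STZ versus chow the log2 fold change of Pgam2 went to 0.31 without that library, against -0.99 with it, and that of Pgam1 to 0.38, against 0.88. The 9 skeletal muscle markers summed to 0.00 to 1.89 CPM in METTL3, 1.34 to 2.18 in HFD+STZ and 1.94 to 6.42 in chow hearts. Chow replicate 3 was the highest at 6.42 CPM, with chow replicate 1 close at 6.06 CPM, where Pgam2 was at 271 CPM. Of these markers 2 were tested, and 1 passed in METTL3 versus chow. Mylpf (2.53 CPM), Tnni2 (2.31 CPM) and Tnnt3 (1.58 CPM) of that list were each at their highest of the 11 libraries in chow replicate 3, while its other 6 genes were at 0 there. Those 6 are Atp2a1, Actn3, Myog and the myosins Myh1, Myh2 and Myh4, and the myosins were at most at 0.259 CPM in any library. The part of these markers in the Pgam2 value was not tested.

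Eno3 had 378, 584, 336 and 467 CPM in METTL3 hearts, 492, 650, 405 and 453 CPM in HFD+STZ hearts and 617, 602 and 1024 CPM in chow hearts. Every METTL3 library lay below every chow library, the closest at 584 against 602 CPM. The log2 fold change in METTL3 versus chow was -0.76 (SE 0.26, edgeR adjusted p = 0.116), and in HFD+STZ versus chow it was -0.58 (SE 0.26, adjusted p = 0.399). Without chow replicate 3 these became -0.48 and -0.28. Eno1, the enolase of most tissues, varied little over the 11 libraries, at 132 to 147 CPM in METTL3, 135 to 153 in HFD+STZ and 135 to 148 in chow hearts. Its log2 fold changes lay between -0.023 and 0.012, with 95% intervals from -0.32 to 0.32 over the 3 comparisons. Bpgm, the red-cell enzyme that makes bisphosphoglycerate, averaged 19.4 ± 4.58 CPM in METTL3, 23.3 ± 5.23 in HFD+STZ and 18.8 ± 2.17 in chow hearts, where the erythroid markers summed to 312 to 1997, 524 to 1127 and 336 to 2248 CPM.

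Lactate dehydrogenase exchanges pyruvate and lactate, and with all 11 libraries neither gene had an unadjusted p under 0.05 in edgeR. Ldha averaged 654 ± 120 CPM in METTL3, 613 ± 73.3 in HFD+STZ and 600 ± 199 in chow hearts, where chow replicate 3 stood at 823 CPM and the others at 444 and 533. Without that library its log2 fold change was 0.41 in METTL3 versus chow, against 0.12 with it, and 0.33 in HFD+STZ versus chow, against 0.030 with it (edgeR adjusted p = 0.236 and 0.654 without it). Ldhb averaged 1238 ± 179, 1188 ± 142 and 1066 ± 102 CPM in the same order. In METTL3 versus HFD+STZ the 95% interval of the log2 fold change was -0.37 to 0.56 for Ldha and -0.31 to 0.43 for Ldhb. Differences within these intervals are not excluded. Counts of Ldha were 0.486 to 0.577 times those of Ldhb in METTL3, 0.495 to 0.529 times in HFD+STZ and 0.459 to 0.704 times in chow libraries, chow replicate 3 being the highest.

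Ratios between isozyme genes do not depend on library scaling, and were described for 10 pairs with no test. They keep any trend with gene length or GC content. How often ratios of other gene pairs fail to overlap was not computed. For single genes in METTL3 versus chow that share was 10.5% on the higher and 8.26% on the lower side. Counts of Pfkm were 5.73 to 6.99 times those of Pfkp in METTL3 libraries, 9.75 to 10.8 times in HFD+STZ libraries and 8.09 to 15.5 times in chow libraries. All METTL3 values lay below all values of both other groups. The deposited lengths are 3340 bases for Pfkm and 13401 for Pfkp. In METTL3 versus chow their log2 fold changes were -0.17 and 0.70, and 0.025 and 0.52 after the length and GC offsets. Within numbers 78 to 98 the ratio was 5.73 in METTL3 replicate 4, 10.8 in HFD+STZ replicate 1 and 8.09 to 15.5 on chow. Counts of Hk2 were 1.34 to 1.86 times those of Hk1 in METTL3 libraries, 1.19 to 1.85 times in HFD+STZ libraries and 1.92 to 2.11 times in chow libraries, so both HFD+STZ groups lay below chow without overlap. The ratio of Pfkfb2 to Pfkfb1 was 3.11 to 5.92 in METTL3, 1.09 to 3.63 in HFD+STZ and 5.57 to 10.1 in chow libraries, with HFD+STZ below chow without overlap. The ratio of Eno3 to Eno1 was 2.44 to 3.96 in METTL3, 2.83 to 4.80 in HFD+STZ and 4.33 to 6.93 in chow libraries, with METTL3 below chow without overlap. That of Pfkfb3 to Pfkfb4 was 8.73 to 30.6 in METTL3, 2.69 to 14.1 in HFD+STZ and 1.34 to 4.22 in chow libraries, with METTL3 above chow without overlap and few Pfkfb4 counts behind it. The pairs Pfkm/Pfkl and Pygm/Pygb overlapped in all comparisons. The ratio of Pgam2 to Pgam1 was 361 in chow replicate 3 and 4.85 to 9.44 in the other 10 libraries, and Aldoc had too few counts for the pair with Aldoa to be read.

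**Figure D4:**
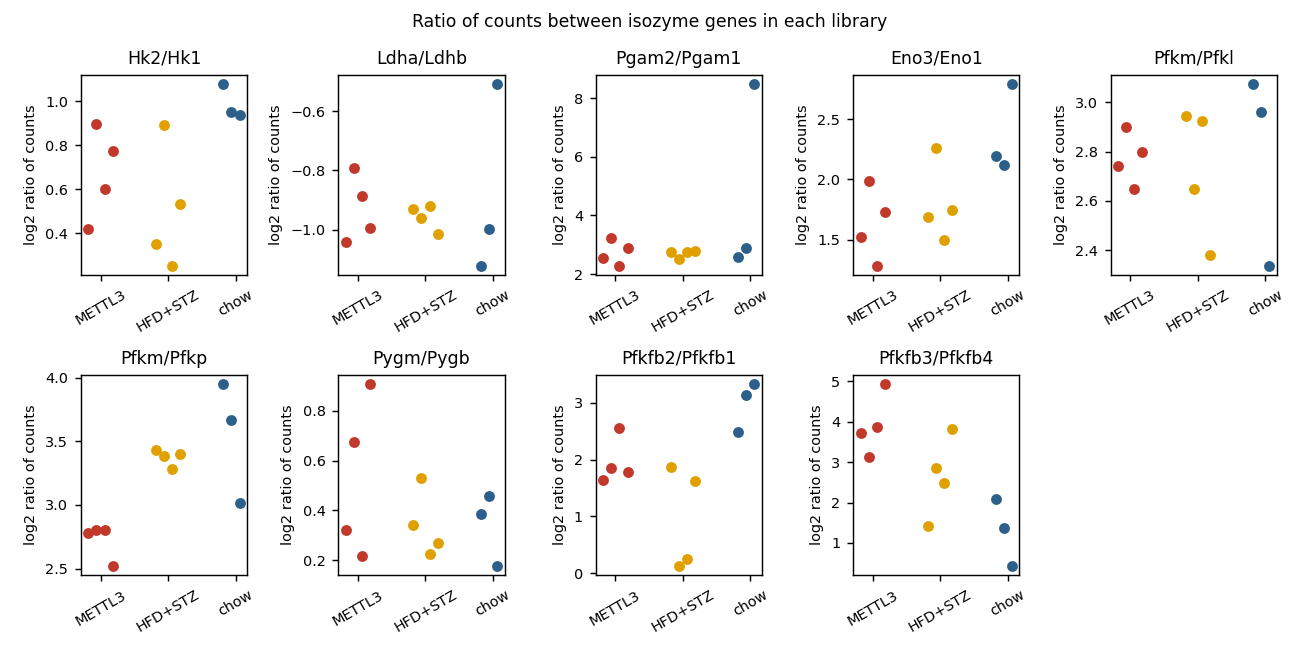
Log2 ratio of counts between isozyme genes for 9 pairs, 1 point per library, METTL3 left of HFD+STZ and chow, each panel with its own axis. Pfkm/Pfkp is lowest in the 4 METTL3 libraries, and Pgam2/Pgam1 is within 4.85 to 9.44 on the linear scale in 10 libraries and at 361 in chow replicate 3.

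Glycogen is built by Ugp2, which makes UDP-glucose, Gyg, the glycogenin primer, Gys1, the muscle glycogen synthase, and Gbe1, the branching enzyme, with Ppp1r3c bringing protein phosphatase to the particle. Of these 5 tested members 0 passed in any comparison in the edgeR fit of all 11 libraries. Gys1 had 111, 87.4, 77.7 and 85.9 CPM in METTL3 hearts, 74.4, 158, 162 and 148 CPM in HFD+STZ hearts and 94.1, 78.9 and 54.8 CPM in chow hearts. HFD+STZ replicates 2, 3 and 4 lay above all other libraries, and HFD+STZ replicate 1 lay within the chow range. Gys1 had a log2 fold change of 0.84 (SE 0.27, edgeR adjusted p = 0.281) in HFD+STZ versus chow and -0.59 (SE 0.25, adjusted p = 0.529) in METTL3 versus HFD+STZ. Without HFD+STZ replicate 1 it was 1.04 in HFD+STZ versus chow (edgeR adjusted p = 0.0414). Within numbers 25 to 33 the METTL3 versus HFD+STZ value was -0.77 (SE 0.16, edgeR adjusted p = 0.0957), and with the number range as a covariate the HFD+STZ versus chow value was 0.38. Ruvbl2 lies opposite Gys1 with 16% of its counts.

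Gyg had 185, 135, 178 and 177 CPM in METTL3 hearts, 124, 135, 175 and 140 CPM in HFD+STZ hearts and 131, 147 and 95.3 CPM in chow hearts. METTL3 hearts held 3 of the 4 highest libraries, and METTL3 replicate 2 lay among the others. The log2 fold change in METTL3 versus chow was 0.44 (SE 0.20, edgeR adjusted p = 0.220). Ppp1r3c averaged 130 ± 47.9 CPM in METTL3, 207 ± 95.4 in HFD+STZ and 114 ± 30.8 in chow hearts, Ugp2 354 ± 30.3, 305 ± 56.1 and 308 ± 23.9, and Gbe1 57 ± 9.99, 58.5 ± 14.1 and 51.4 ± 13.7.

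Glycogen is broken down by the phosphorylases Pygm and Pygb, which phosphorylase kinase switches on, and in lysosomes by the acid glucosidase Gaa. Of these 6 tested members 0 passed in HFD+STZ versus chow or METTL3 versus HFD+STZ, and 2 passed in METTL3 versus chow, both subunits of phosphorylase kinase and in opposite directions. Phka1 encodes its muscle regulatory subunit alpha and Phkg1 its muscle catalytic subunit gamma. Their promoters are shown because of this contrast, for the same span around the RefSeq start site (GRCm38.p6), both on the minus strand, 5′ to 3′, with CCAAT or its complement in capitals. That of Phka1 is chrX:102644197-102644496 and that of Phkg1 is chr5:129879039-129879338. The counted row of Phkg1 runs on to base 129898549, upstream of the start site shown (129879088), so it also covers sequence before this window.
Phka1: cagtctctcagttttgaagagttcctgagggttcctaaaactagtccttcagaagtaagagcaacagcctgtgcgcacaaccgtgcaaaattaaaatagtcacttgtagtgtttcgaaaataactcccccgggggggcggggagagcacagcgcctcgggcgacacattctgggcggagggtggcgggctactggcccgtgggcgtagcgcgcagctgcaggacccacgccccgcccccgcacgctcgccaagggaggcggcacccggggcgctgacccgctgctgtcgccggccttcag
Phkg1: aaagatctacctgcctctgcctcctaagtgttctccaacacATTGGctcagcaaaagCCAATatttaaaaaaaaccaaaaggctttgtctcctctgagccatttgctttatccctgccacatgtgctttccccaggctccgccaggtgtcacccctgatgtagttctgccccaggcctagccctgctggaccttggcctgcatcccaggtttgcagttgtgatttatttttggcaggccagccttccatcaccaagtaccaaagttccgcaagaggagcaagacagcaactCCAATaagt
CCAAT stands 3 times in the Phkg1 window, 209 bases before the start site on the reverse strand, 193 before it and 41 after it on the forward strand, and the letters do not occur in the Phka1 window. On either strand CCAAT was found in at least 1 promoter of 17 of 35 members (48.6%) and of 41.1% of genes. Counted by promoter, it was in 21 of the members' 53 and in 37.4% of all. The other members with an unadjusted p under 0.05 in METTL3 versus chow (edgeR) were mixed. CCAAT was found for Pfkp and Pfkfb1 on the higher side and for Eno3, Pgam2 and Pfkfb4 on the lower side. It was not found for Fbp2 and Gyg on the higher side or for Gapdh on the lower side. Whether CCAAT bears on these fold changes was not tested.

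Phka1 had 60.2, 60.7, 61.1 and 64.1 CPM in METTL3 hearts, 40.2, 79.3, 69.6 and 63.5 CPM in HFD+STZ hearts and 35.3, 34.2 and 35 CPM in chow hearts. Every METTL3 and HFD+STZ library exceeded every chow library, and METTL3 replicate 4 and HFD+STZ replicate 1, which share the number range of chow, lay at 64.1 and 40.2 CPM. Phka1 had a log2 fold change of 0.82 (SE 0.20, edgeR adjusted p = 0.0487) in METTL3 versus chow and 0.86 (SE 0.20, adjusted p = 0.133) in HFD+STZ versus chow. Between METTL3 and HFD+STZ it was -0.038, with a 95% interval of -0.44 to 0.36. Without HFD+STZ replicate 1 the HFD+STZ versus chow value was 1.03 (SE 0.15, edgeR adjusted p = 0.00744). Gene length and GC content offsets gave 0.67 in METTL3 versus chow (edgeR adjusted p = 0.138).

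Phkg1 had 6.03, 11.3, 4.30 and 8.24 CPM in METTL3 hearts, 12.2, 11, 9.69 and 8.58 CPM in HFD+STZ hearts and 16.2, 13.5 and 20.04 CPM in chow hearts. All METTL3 and HFD+STZ libraries lay below all chow libraries. Its log2 fold change was -1.15 (SE 0.29, edgeR adjusted p = 0.0497) in METTL3 versus chow and -0.68 (SE 0.29, adjusted p = 0.377) in HFD+STZ versus chow. After the GC and length offsets the METTL3 versus chow value was -1.25 (edgeR adjusted p = 0.0794). The row of Phkg1 spans Chchd2 on the same strand, which has 88269 counts over all libraries against 1961 for Phkg1. Chchd2 itself had a log2 fold change of -0.35 in METTL3 versus chow (edgeR adjusted p = 0.512). Sumf2 and Zbed5 lie opposite Phkg1 with 38.2% and 45.4% of its counts, at log2 fold changes of -0.72 and -0.29. The sources used here do not say how reads of these genes were divided, and the Phkg1 values are uncertain to that degree.

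The third subunit measured, Phkb, averaged 62.3 ± 17.5 CPM in METTL3, 64.1 ± 13.3 in HFD+STZ and 49.9 ± 8.99 in chow hearts. Pygm averaged 715 ± 96.3 CPM in METTL3, 912 ± 190 in HFD+STZ and 644 ± 234 in chow hearts, and Pygb, the brain form, 511 ± 160, 720 ± 151 and 499 ± 148 CPM. Gaa had 119, 99.5, 123 and 113 CPM in METTL3 hearts, 103, 174, 148 and 172 CPM in HFD+STZ hearts and 134, 143 and 116 CPM in chow hearts. HFD+STZ replicates 2, 3 and 4 lay above all other libraries once more. HFD+STZ replicate 1 also stood apart in markers, with 7 fibroblast markers at 2209 CPM against 876 to 1094 in the other HFD+STZ libraries and 12 cardiomyocyte markers at 47307 CPM against 60969 to 68812. The part of these markers in the values of Pfkm, Pgk1, Gys1 and Gaa was not tested. In METTL3 versus HFD+STZ Gaa had a log2 fold change of -0.39 (SE 0.18, edgeR adjusted p = 0.548).

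Other genes of glucose and glycogen handling were counted from a list of 50, of which 41 were tested, and 0 passed in any comparison. In HFD+STZ versus chow 4 had an unadjusted p under 0.05 in edgeR, in METTL3 versus HFD+STZ 2 and in METTL3 versus chow 5, beside 12.1%, 9.06% and 21.7% of all genes, so the list's counts were not above those shares. The genes named are given for their values only. In HFD+STZ versus chow, Ppp1r3a, the striated muscle glycogen-targeting subunit of protein phosphatase, lay at a log2 fold change of 1.18 (SE 0.35). Calm2, a gene for the calmodulin that also serves as a phosphorylase kinase subunit, lay at -0.75 (SE 0.33). In METTL3 versus HFD+STZ they were the lactate transporter Slc16a1 at 0.45 (SE 0.16) and the phosphatase catalytic subunit Ppp1ca at -0.62 (SE 0.17). In METTL3 versus chow they included Ppp1r3a at 1.12 (SE 0.35), Ppp1cb at 0.80 (SE 0.22) and Gsk3b at 0.36 (SE 0.16) on the higher side and Ppp1r3b at -0.72 (SE 0.30) on the lower side. The list's median log2 fold change was 0.087 in HFD+STZ versus chow, -0.14 in METTL3 versus HFD+STZ and 0.077 in METTL3 versus chow, beside -0.018, -0.0036 and -0.011 over all genes.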

How the data were processed

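Whole-heart RNA of 11 libraries was measured. Per the labels' protocols, RNA was taken up in Trizol, cleared of ribosomal RNA (RiboZero) and turned into libraries with a NEB kit. The deposited table gives whole-number counts per gene, and build mm10, Salmon and FastQC are named, unversioned, per the submitters' processing notes. The sources used here do not state the annotation, the strand setting or the treatment of shared reads. Of the 36 member rows, 34 have the same coordinates in GENCODE M21.

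The tests used edgeR 4.0.16 (R 4.3.3) with TMM scaling, filterByExpr (minimum count 10, minimum total 15), 1 model of group means over all 11 libraries, the quasi-likelihood test and Benjamini-Hochberg adjustment over 14862 genes. Standard errors came from the coefficient and its F statistic, and intervals of 95% cover counting error and the modelled spread only. CPM used TMM library sizes, and ratios a pseudocount of 0.5. The procedure was checked on simulated counts. Depth was 13900531 to 16952639 counts per library. No label says that replicates came from separate animals, so p-values measure only how these samples spread, which may be technical. Within groups, all libraries differed by more than sampling noise.

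Alternatives were DESeq2 1.42.0, limma 3.58.1 voom with quality weights, DESeq2-type size factors, mitochondrially encoded genes left out, no filter, the sample number range as a covariate, a block for the replicate number, numbers 25 to 33 alone, each library left out, chow replicate 3 and HFD+STZ replicate 1 left out together, and loess offsets (span 0.5) on gene length and GC content, which 99.9% of tested genes had. All 35 members are named. Library values and tests are given for those past the threshold or at an unadjusted p under 0.05, and ranges or means for the rest. The members, gene lists and alternatives were chosen with earlier results of these data known. Promoters are RefSeq sequences of GRCm38.p6, in which all 35 symbols matched. Some genes of the list of other glucose and glycogen genes are counted but not reported here by name.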

Additional observations from a re-analysis of the deposited data

Results flagged for a closer look

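In the groups of 4 libraries, 68 sets of values (34 members in METTL3 and in HFD+STZ hearts) were checked for a library far from the others. In 3 of them the end library's gap to its neighbour was a larger share of the group's range than Dixon's critical value allows. Chance does this in about 1 of 20 sets, so 3 of 68 is no more than that rate would give. Gyg was at 135 CPM in METTL3 replicate 2, below 177 to 185 CPM in the other METTL3 libraries. Gys1 was at 74.4 CPM in HFD+STZ replicate 1, against 148 to 162 CPM in the other HFD+STZ libraries. Pfkp was at 43.6 CPM in HFD+STZ replicate 1, against 68.8 to 72.1 CPM in the others. HFD+STZ replicate 1 is the library of its group whose sample number falls with those of the chow libraries. The part of the number range in these values was not tested.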

How the results depend on the processing

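The numbers of genes called (members in brackets) were 25 (0) in HFD+STZ versus chow, 0 (0) in METTL3 versus HFD+STZ and 475 (4) in METTL3 versus chow. In that order they were 284 (3), 70 (0) and 1340 (6) with DESeq2, 1954 (10), 395 (2) and 3078 (9) with limma voom, and 493 (6), 403 (4) and 1258 (7) without chow replicate 3 and HFD+STZ replicate 1. In HFD+STZ versus chow and METTL3 versus chow they were 190 (2) and 747 (6) without a filter, 59 (1) and 183 (1) with length and GC offsets, and 1 (0) and 1 (0) with the number range as a covariate, where the members' medians were 0.064 and -0.15. In METTL3 versus chow 2 members passed with DESeq2-type size factors and 2 without mitochondrially encoded genes. Leaving out a single library gave 1 to 215 genes (0 to 4 members) in HFD+STZ versus chow, 0 genes in METTL3 versus HFD+STZ and 34 to 750 genes (0 to 5 members) in METTL3 versus chow. The log2 fold change of Pgam2 in METTL3 versus chow ran from -1.67 to 0.0090 over these fits. It turned to 0.0078 without chow replicate 3 and to 0.0090 without HFD+STZ replicate 1 as well. With the replicate block, 2 genes (0 members) passed in HFD+STZ versus chow and 5 (0) in METTL3 versus chow. The numbers do not pair the samples, since same-numbered libraries deviated together with correlations of -0.23 to 0.16 and 5 of 20 correlated best with their own number. The cause of these shifts was not tested. Depth limits Pfkfb4 most, the tested member with the fewest counts.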
